A study of Mus musculus with 30 samples.

Results

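Voltage-gated calcium channels let calcium into neurons when the membrane depolarises, and 10 of their genes were followed here in the nucleus accumbens, a part of the ventral striatum concerned with reward and with pain. They are 7 genes of pore-forming alpha-1 subunits (Cacna1a, Cacna1b, Cacna1c, Cacna1d, Cacna1e, Cacna1g and Cacna1i) and 3 of alpha-2-delta subunits (Cacna2d1, Cacna2d2 and Cacna2d3). The genes were chosen by symbol, as pore subunits and as the subunit family that the neuropathic pain drug gabapentin binds. All 10 were found among the 55401 gene IDs of the count table, and all 10 were among the 23736 genes tested.

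The RNA came from punches taken from both sides of the accumbens of male C57Bl/6J mice, 1 mouse to a library, and polyadenylated RNA was sequenced from 30 libraries. The mice had a tibial spared nerve injury (SNI), a surgical model of neuropathic pain, or a sham operation, and 4 weeks later began 3 weeks of intraperitoneal injections, given 2 times a day. Sham mice received saline (5 mice, the study's control), tianeptine at 30 mg/kg (6) or desipramine at 15 mg/kg (4), and SNI mice received saline (5), tianeptine (6) or desipramine (4) at the same doses. Tianeptine is an antidepressant that acts as an agonist of the mu-opioid receptor. Desipramine, a tricyclic, inhibits the noradrenaline transporter. The 2 drugs were given at different doses, so a difference between them is one between these 2 regimens. All groups share the strain and the sex, and the labels give no age.

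The alpha-1 subunit forms the pore and senses voltage, and its gene sets the type of current. Cacna1a (P/Q-type) and Cacna1b (N-type) carry most of the calcium that triggers transmitter release, and Cacna1e carries the R-type current. Cacna1c and Cacna1d form L-type channels, which in medium spiny neurons, the principal neurons of the striatum, shape firing and link activity to gene transcription. Cacna1g and Cacna1i form low-threshold T-type channels, which open near rest and support burst firing. Alpha-2-delta subunits are largely extracellular proteins that bring channels to the membrane and to presynaptic terminals. Gabapentin binds the products of Cacna2d1 and Cacna2d2 and not that of Cacna2d3, and in the Cacna2d1 product binding needs an arginine in a run of 3.

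The coding stretch around that run is shown for the 3 alpha-2-delta genes because the run is whole in the gabapentin-binding members and interrupted in the third. Each line holds 63 coding bases, read 5′ to 3′ along the gene's own strand from GENCODE M21 transcripts on GRCm38, the assembly of build mm10, and the capitals mark the 3 codons at the position of the run.
Cacna2d1: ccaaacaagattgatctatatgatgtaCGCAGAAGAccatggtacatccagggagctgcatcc
Cacna2d2: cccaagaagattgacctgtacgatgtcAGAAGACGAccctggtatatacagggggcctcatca
Cacna2d3: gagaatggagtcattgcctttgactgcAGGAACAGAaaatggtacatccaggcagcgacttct
In Cacna2d1 the capitals are codons 239 to 241 and in Cacna2d2 codons 280 to 282, and all 3 encode arginine in both genes. In Cacna2d3 they are codons 242 to 244, of which 2 encode arginine and the middle one, AAC, does not. The Cacna2d3 coding sequence has 1 run of 3 arginine codons, at another position. Which arginine of the run binding needs is not given here, so these codons do not show whether Cacna2d3 lacks it. The stretches of Cacna2d1 and Cacna2d2 share 47 of 63 bases (74.6%), whereas Cacna2d3 shares 33 with Cacna2d1 and 28 with Cacna2d2. Each stretch is joined across an intron. The bases lie within chr5:16264287-16266708 on the plus strand for Cacna2d1, chr9:107512320-107513075 on the plus strand for Cacna2d2 and chr14:29347010-29347162 on the minus strand for Cacna2d3.

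Before the channel genes, the libraries were compared. Total counts were 24.5 to 37.7 M (mega) in 24 libraries and 98.0 to 120.7 M in the other 6, which carry a second numbering in their names, hold every replicate 5 and 6, and include no desipramine library. This second set was given its own term in every test. The tissue label was checked on markers of medium spiny neurons: Drd1, a dopamine receptor gene, had a median of 190.1 CPM (counts per M counts of the library, with TMM scaling), and Ppp1r1b, which encodes DARPP-32, 609 CPM. SNI desipramine replicate 2 had the lowest values of both, 19.3 and 73.4 CPM. Replicates 2 and 3 of that group stood apart on several lists, where a score is the mean log2 CPM of a list's genes, after the gene's mean over the 30 libraries is taken off. Their medium spiny neuron scores were -2.31 and -0.71, against -0.18 and 0.41 in replicates 1 and 4. Their thalamic and habenular neuron scores were 1.11 and 1.09, against 0.45 and -0.29. In bulk RNA, fewer cells of a type and less RNA per cell cannot be told apart.

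Per length of exon, all 10 genes were expressed, in transcripts per M transcripts (TPM) computed from the counts. Cacna2d3 had the highest mean, 117 ± 27.9 TPM (SD, n = 30 libraries), followed by Cacna1b with 95.1 ± 7.18 TPM, Cacna2d2 with 93.7 ± 28.5 TPM and Cacna1e with 87.8 ± 14.9 TPM. These 4 neighbours did not differ beyond the larger SD of each adjacent pair. Cacna2d2 had a higher mean than Cacna1e and yet was above it in 14 of 30 libraries, so the order of this pair rests on a few libraries. Next came Cacna1a with 69.2 ± 8.499 TPM, a gap to Cacna1e beyond the SD. Below lay Cacna1i with 51.0 ± 9.73 TPM, Cacna2d1 with 49.6 ± 16.7 TPM and Cacna1d with 39.5 ± 4.30 TPM, again without a gap beyond the SD between neighbours. Cacna1c with 32.7 ± 4.73 TPM and Cacna1g with 31.9 ± 13.6 TPM came last and did not differ from each other. Summed over family members, the Cav2 pores (Cacna1a, Cacna1b and Cacna1e) reached 252.1 ± 23.5 TPM, the T-type pores 82.9 ± 14.6 TPM and the L-type pores 72.2 ± 7.98 TPM.

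**Figure D1:**
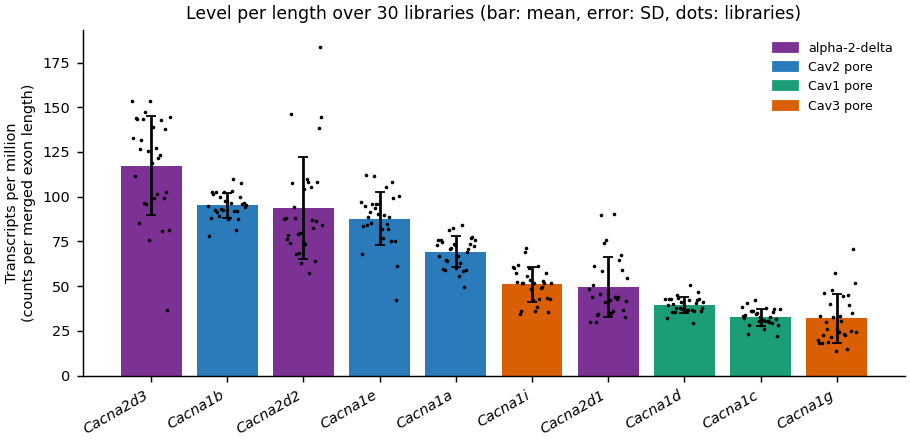
Bars give the mean TPM of each gene over 30 libraries, error bars the SD and dots the single libraries, coloured by subunit family. Cacna2d3 has the highest bar at 117 TPM and Cacna1g the lowest at 31.9 TPM, and the dots of Cacna2d2 and Cacna2d3 spread more widely than those of Cacna1b.

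The genes differed widely in how steady they were across mice. The highest library exceeded the lowest 1.34-fold in CPM for Cacna1b, 1.65-fold for Cacna1d and 1.70-fold for Cacna1a. The ratio was 4.84 for Cacna1g, 4.35 for Cacna2d3, 3.28 for Cacna2d2 and 2.99 for Cacna2d1. The fewest counts behind any of these values were 961, for Cacna1g, so counting error is small beside the spread between mice.

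**Figure D2:**
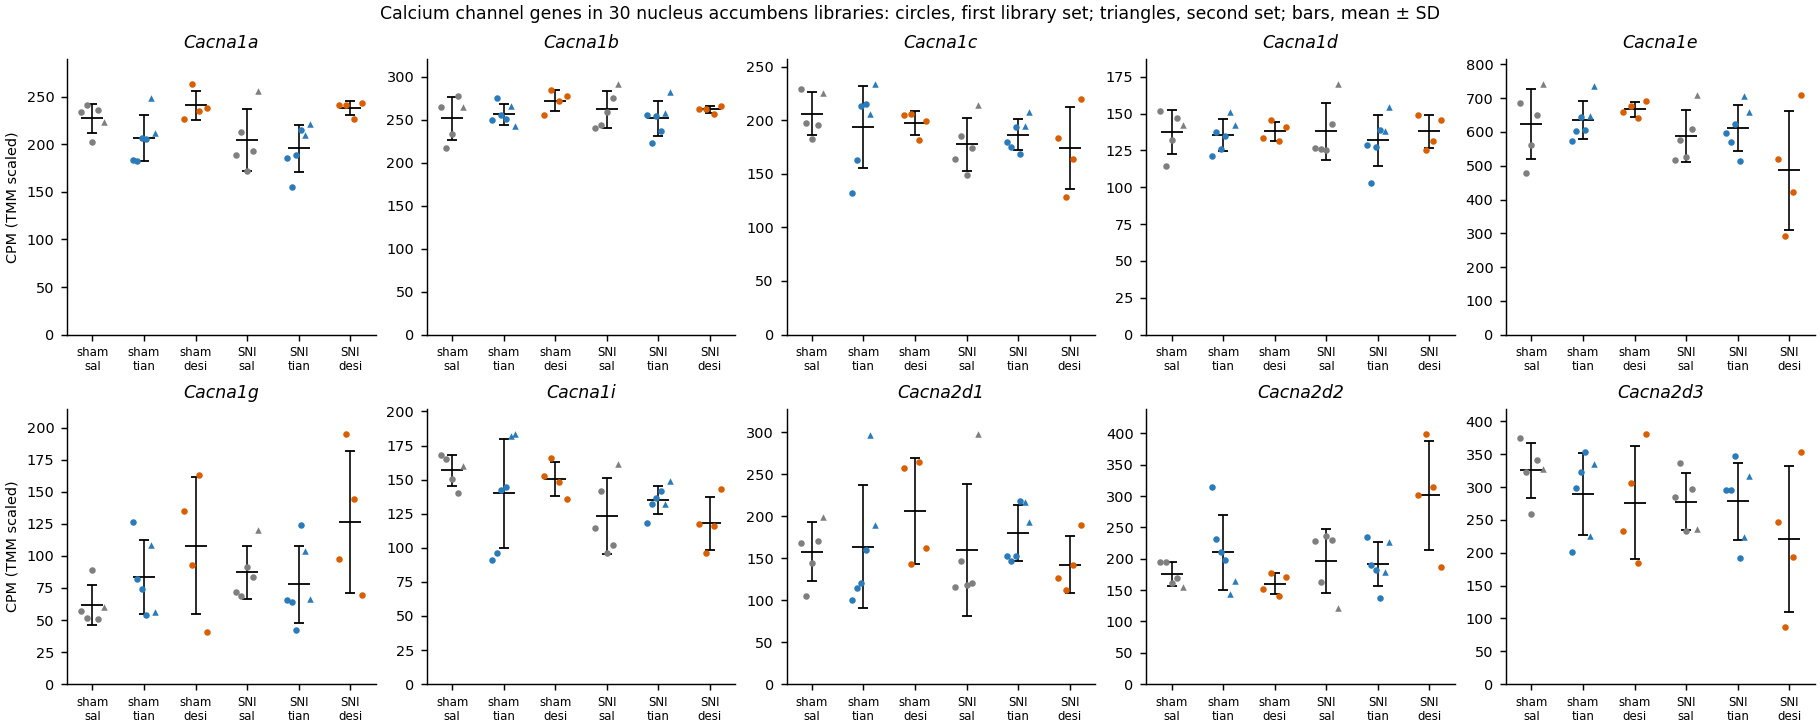
Each panel shows 1 gene, with CPM on an axis from 0 and the 6 groups along the bottom (sal, saline; tian, tianeptine; desi, desipramine). Points are libraries, circles from the first set and triangles from the second, and black bars give mean and SD. Cacna1b lies in a narrow band in all groups, 3 of 4 SNI desipramine libraries of Cacna2d2 lie at 302 to 399 CPM, and the SNI desipramine libraries of Cacna1e and Cacna2d3 are spread widely.

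Cacna2d2, the second gabapentin-binding alpha-2-delta subunit (chr9:107399612-107529343, plus strand, mm10), was the gene with the largest called change, and it was higher in SNI than in sham mice on desipramine. Its level was 152 CPM, 178 CPM, 140.3 CPM and 171 CPM in sham desipramine replicates 1 to 4. In SNI desipramine replicates 1 to 4 it was 302 CPM, 399 CPM, 314 CPM and 187 CPM. The ranges did not overlap, although replicate 4 of the SNI group lay only just above the sham range and replicate 2 far above all others. The log2 fold change was 0.91 ± 0.21 (SE; 95% interval 0.48 to 1.34; a ratio of 1.88), with an adjusted p of 0.00972 by edgeR's quasi-likelihood test with Benjamini-Hochberg adjustment over all genes tested. It was the only one of the 10 genes called in this comparison, in which 11.3% of all genes tested were called, so the share among the 10 was near the background.

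Markers of other cell types also differed between these groups. In this comparison 7.22% of all genes tested were called higher and 4.08% lower. Among thalamic and habenular neuron markers, 4 of 9 tested genes were called higher in SNI mice on desipramine and 0 lower, and their summed level was 103 to 329 CPM against 86.6 to 133 CPM in sham mice. Of septal and hypothalamic neuron markers, 4 of 8 tested were called higher, with summed levels of 225 to 363 CPM against 209.9 to 229 CPM. Of interneuron and cholinergic neuron markers, 6 of 13 were called higher and 1 lower, with 501 to 913 CPM against 544 to 703 CPM. Of medium spiny neuron markers 0 of 20 were called and 19 had lower fitted values, with 1778 to 11103 CPM against 6478 to 12303 CPM. Of cortical excitatory neuron markers 0 of 10 were called and 9 had lower fitted values, with 122 to 278 CPM against 101 to 1287 CPM. Pou4f1 of the thalamic list was at 0 in 8 of the 30 libraries, and 7 septal and hypothalamic markers, among them Oxt, Avp and Hcrt, were each at 0 in 1 to 11 libraries. None of these was among the genes tested. Calb2 is in both the thalamic and the interneuron list. The scores of the remaining lists in SNI against sham mice on desipramine (mean ± SD, n = 4 each) were as follows. Choroid plexus and ependyma had 0.52 ± 0.48 against -0.42 ± 0.37, and fibroblasts and meninges -0.39 ± 0.24 against 0.27 ± 0.69. Astrocytes had 0.19 ± 0.17 against -0.06 ± 0.12 and oligodendrocytes 0.13 ± 0.26 against -0.11 ± 0.28. Microglia had 0.07 ± 0.10 against 0.05 ± 0.11, and endothelial and mural cells 0.04 ± 0.12 against 0.26 ± 0.18.

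With the medium spiny, cortical, and septal and hypothalamic scores as covariates, the log2 fold change of Cacna2d2 was 0.25 (adjusted p = 0.696). Without SNI desipramine replicates 2 and 3 it was 0.59 (adjusted p = 0.614), and without replicate 2 alone 0.73 (adjusted p = 0.0768). The direction was the same in each of these fits and the call was lost. SNI desipramine replicate 4, whose medium spiny neuron score was the highest of its group, moved the counts the other way. Without it 4 of the 10 genes were called between SNI and sham mice on desipramine: Cacna2d2 at 1.06, Cacna1e at -0.72, Cacna1i at -0.48 and Cacna2d1 at -0.73 (adjusted p = 0.000375, 0.000355, 0.0334 and 0.0344 in that order). The share of all genes called in that fit is not given here, so these 4 calls have no background beside them. What part the tissue content of the punches has in the difference was not tested beyond these fits.

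**Figure D3:**
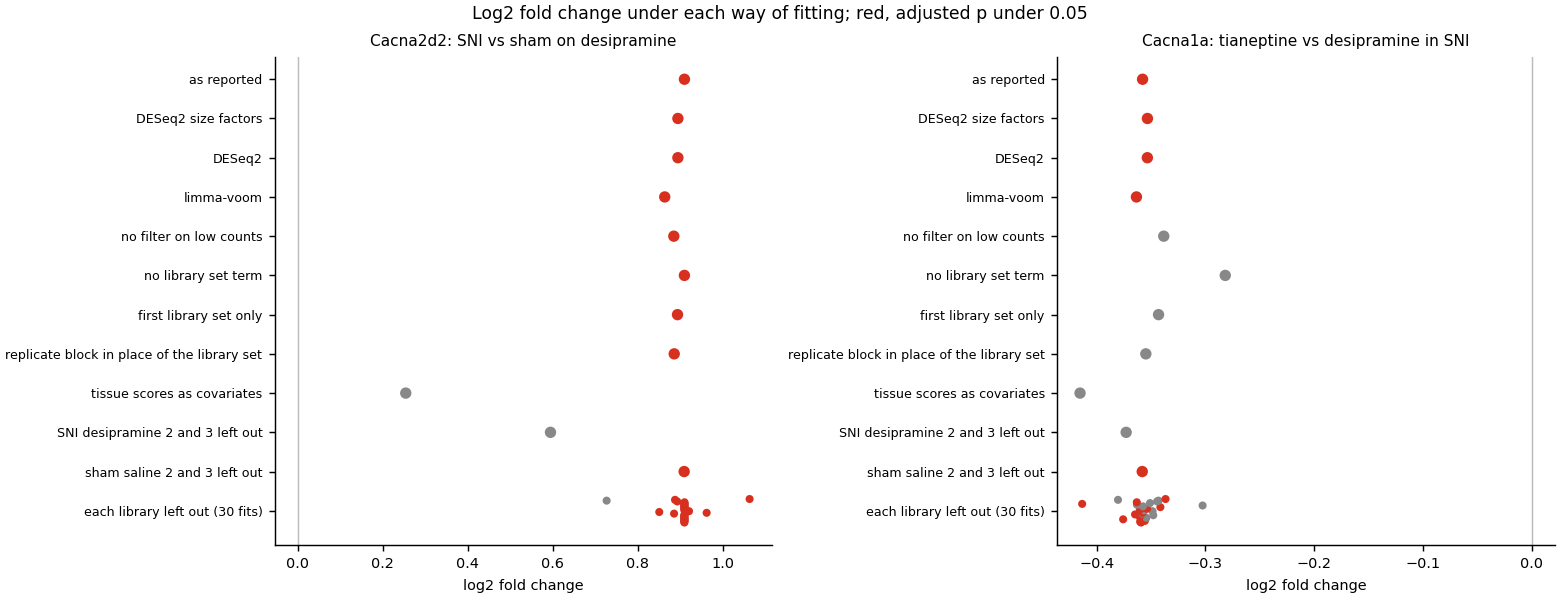
The horizontal axis is the log2 fold change of Cacna2d2 between SNI and sham mice on desipramine (left) and of Cacna1a between tianeptine and desipramine in SNI mice (right), with 1 row per way of fitting and all 30 fits that leave out a library in the bottom row. Red points passed an adjusted p of 0.05. Cacna2d2 stays above 0 throughout and falls to 0.25 with tissue scores as covariates, and Cacna1a keeps its side of 0 while its call comes and goes.

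In the other groups Cacna2d2 varied without a call. On saline it was 196 CPM, 195 CPM, 161 CPM, 169 CPM and 154 CPM in the 5 sham mice. In the 5 SNI mice on saline it was 228 CPM, 163 CPM, 236 CPM, 230.5 CPM and 122 CPM. The SNI mice thus held both the highest values and the lowest one, and the log2 fold change was 0.14 ± 0.18 (95% interval -0.24 to 0.52; adjusted p = 0.845). On tianeptine the lowest, median and highest values were 144 CPM, 204 CPM and 315 CPM in sham mice and 138 CPM, 186 CPM and 234 CPM in SNI mice. The ranges overlapped, and sham tianeptine replicate 1, at 315 CPM, lay above every SNI value. The change of the desipramine effect between SNI and sham was 0.77 ± 0.28 on the log2 scale for Cacna2d2 (adjusted p = 0.299), so a difference between the surgeries in the desipramine effect was not called. Without SNI desipramine replicate 4 it was 0.92 (adjusted p = 0.0403). Against SNI saline, SNI desipramine gave 0.57 ± 0.20 for Cacna2d2 (adjusted p = 0.144). Tianeptine against desipramine gave -0.52 ± 0.19 in SNI mice (adjusted p = 0.126) and 0.48 ± 0.19 in sham mice (adjusted p = 0.333). None of these drug comparisons was called, and each shares a desipramine group with the called one.

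Cacna2d1, the main target of gabapentin in pain pathways (chr5:15934691-16374511, plus strand), had no called group difference. It was 257 CPM, 143 CPM, 264 CPM and 162 CPM in sham desipramine replicates 1 to 4. In SNI desipramine replicates 1 to 4 it was 126 CPM, 112 CPM, 142 CPM and 189.5 CPM. The SNI values were mostly the lower ones, but replicate 4 lay above 2 of the sham values. The fitted log2 fold change was -0.54 ± 0.23 (adjusted p = 0.125). Against sham saline, sham desipramine gave 0.55 ± 0.22 (adjusted p = 0.566), and tianeptine against desipramine in sham mice gave -0.66 ± 0.21 (adjusted p = 0.257). These 3 comparisons share the sham desipramine mice. Between SNI and sham mice on saline the log2 fold change of Cacna2d1 was -0.06 ± 0.21 (95% interval -0.48 to 0.37).

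Between the library sets Cacna2d1 differed more than any other of the 10 genes. Its second-set level exceeded the first-set level by 0.74 ± 0.15 on the log2 scale (adjusted p = 0.000414). In all 5 of the 10 genes passed between the sets, against 32.3% of all genes tested, and the other 4 were Cacna1a, Cacna1c, Cacna1d and Cacna1i, by 0.21 to 0.33. The second set holds no desipramine library, and the term for it enters every test. Its libraries are from other mice than the first set. Their cortical excitatory neuron scores were 1.14 in sham saline and 2.14 and 0.83 in sham tianeptine. In SNI mice they were 2.30 on saline and 1.67 and -1.79 on tianeptine. What part the tissue content of the punches has in the difference between the sets was not tested.

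Cacna2d3, the alpha-2-delta gene whose product does not bind gabapentin (chr14:28904943-29721864, minus strand), had the highest level per length and no called difference. In SNI desipramine replicates 1 to 4 it was 247 CPM, 87.6 CPM, 194 CPM and 354 CPM. In sham desipramine replicates 1 to 4 it was 234 CPM, 306 CPM, 185 CPM and 381 CPM. The groups overlapped and differed mainly through SNI desipramine replicate 2, with a log2 fold change of -0.32 ± 0.28 (adjusted p = 0.479). Group means of Cacna2d3 ran from 221 ± 111 CPM (SD, n = 4) in SNI desipramine to 325 ± 42.2 CPM (n = 5) in sham saline.

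The make-up of the alpha-2-delta transcripts shifted in the same libraries, as a share of the summed TPM of the 3 genes. Cacna2d2 made up 29.5% ± 2.10 (SD, n = 4) in sham desipramine and 51.5% ± 17.6 (n = 4) in SNI desipramine, and its share there ran from 29.7% to 72.5%. Cacna2d3 made up 45.6% ± 9.49 and 33.2% ± 15.2, and Cacna2d1 24.96% ± 9.71 and 15.3% ± 2.89, in the same order. The sum of the 3 genes was 244 ± 24.7 TPM in sham desipramine and 271 ± 13.1 TPM in SNI desipramine, so the shares differed more than the total. In the 4 saline and tianeptine groups the mean share of Cacna2d2 was between 30.7% and 36.4%. Single libraries of these groups reached 55.98% (sham tianeptine replicate 1) and 44.97% (SNI saline replicate 3). The share in sham tianeptine replicate 1 lay above those of SNI desipramine replicates 1, 3 and 4. The shares are given as a description, with no test.

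Among the release-related pores, Cacna1a (chr8:84388440-84640246, plus strand) was lower on tianeptine than on desipramine. In SNI mice on tianeptine the lowest, median and highest values were 155 CPM, 199 CPM and 221 CPM (n = 6). In SNI desipramine replicates 1 to 4 they were 241 CPM, 241 CPM, 227 CPM and 243 CPM. Every tianeptine value lay below every desipramine value. On the log2 scale the difference was -0.36 ± 0.08 (95% interval -0.53 to -0.19; adjusted p = 0.0417), and Cacna1a was 1 of 10 genes called, in a comparison where 1.33% of all genes tested were called.

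In sham mice the difference in Cacna1a had the same sign and was not called. The lowest, median and highest values on tianeptine were 183 CPM, 206 CPM and 249 CPM (n = 6). Sham desipramine replicates 1 to 4 had 227 CPM, 263 CPM, 235 CPM and 238 CPM. The highest tianeptine library, replicate 5 from the second set, lay within the desipramine range and the other 5 below it. The log2 fold change was -0.30 ± 0.08 (adjusted p = 0.186), and 0 of 10 genes were called by edgeR, DESeq2 or limma-voom, against 0.0716% of all genes tested by edgeR. In that comparison 3 of the 10 had an unadjusted p under 0.05, against 12.1% of all genes. As a mean over both surgeries, a comparison added after these values were seen, Cacna1a gave -0.33 ± 0.06 (adjusted p = 0.0156), 1 of 10 genes called against 0.438% of all genes.

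Marker lists differed between the same libraries, in SNI mice in a comparison that called 1.33% of all genes tested. In tianeptine against desipramine in SNI mice, 20 of 20 medium spiny neuron markers had higher fitted values and 0 were called, with summed levels of 6394 to 11545 CPM on tianeptine and 1778 to 11103 CPM on desipramine. Of thalamic and habenular markers 2 of 9 tested were called lower, with 89.7 to 155 CPM against 103 to 329 CPM. Of septal and hypothalamic markers 1 of 8 tested was called lower, with 183 to 297 CPM against 225 to 363 CPM. Markers of astrocytes, oligodendrocytes and endothelial and mural cells had 1 gene called lower in each list, and no marker of any list was called higher. Of cortical excitatory neuron markers 0 of 10 were called, with 109 to 1042 CPM against 122 to 278 CPM.

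The call for Cacna1a in SNI mice was near the threshold. Leaving out 1 library at a time, it was lost in 12 of 30 fits, with log2 fold changes of -0.41 to -0.30 and adjusted p values of 0.013 to 0.271. The 12 libraries were SNI tianeptine replicates 1, 2, 3 and 5, SNI desipramine replicates 1, 2 and 3, sham tianeptine replicates 2 and 5, sham desipramine replicates 1 and 4, and SNI saline replicate 1. Within the first library set alone the value was -0.34 (adjusted p = 0.0655), and with tissue scores as covariates -0.42 (adjusted p = 0.0778). The mean over surgeries was called in all 30 fits that left out a library, within the first set (-0.33, adjusted p = 0.0283) and with tissue scores as covariates (-0.32, adjusted p = 0.00528). It was lost with no term for the library set (-0.25, adjusted p = 0.0893) and without SNI desipramine replicates 2 and 3 (-0.34, adjusted p = 0.0571).

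Set against saline, neither drug moved Cacna1a past the threshold. On saline it was 234 CPM, 242 CPM, 203 CPM, 236 CPM and 223 CPM in the 5 sham mice. In the 5 SNI mice on saline it was 189 CPM, 213 CPM, 172 CPM, 193 CPM and 256 CPM. The highest SNI value is the second-set library, and the other 4 include the lowest values on saline, and the groups overlap. Desipramine against saline gave 0.27 ± 0.09 in SNI mice (adjusted p = 0.122) and 0.12 ± 0.09 in sham mice (adjusted p = 0.781). Tianeptine against saline gave -0.09 ± 0.08 in SNI mice (adjusted p = 1) and -0.18 ± 0.08 in sham mice (adjusted p = 0.727). These comparisons share their saline or drug groups with those above. Across all 6 groups jointly, Cacna1a was the only gene of the 10 that passed the F test (adjusted p = 0.0434), which called 1.55% of all genes. Leaving out 1 library at a time, no gene of the 10 passed this F test in 20 of 30 fits. Cacna2d2 had an adjusted p of 0.0823 there.

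Cacna1e, the R-type pore (chr1:154390731-154884501, minus strand), was just short of the threshold between SNI and sham mice on desipramine. Sham desipramine replicates 1 to 4 had 659 CPM, 676 CPM, 640.0 CPM and 691 CPM. SNI desipramine replicates 1 to 4 had 521 CPM, 292 CPM, 421 CPM and 709 CPM. Replicates 1 to 3 of the SNI group lay below all sham libraries and replicate 4 above them. The log2 fold change of Cacna1e was -0.46 ± 0.15 (adjusted p = 0.0511). It passed with DESeq2 (-0.47, adjusted p = 0.0242) and with limma-voom (-0.53, adjusted p = 0.0326), and without SNI desipramine replicate 4 it was -0.72 (adjusted p = 0.000355). Without SNI desipramine replicates 2 and 3 it was -0.13 (adjusted p = 0.755), and with tissue scores as covariates -0.19 (adjusted p = 0.742). On saline and on tianeptine the SNI-to-sham values of Cacna1e were -0.09 ± 0.14 and -0.06 ± 0.12.

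Cacna1b, the N-type pore and the target of ziconotide (chr2:24603887-24763152, minus strand), was the steadiest of the 10. Its group means lay between 252 ± 25.4 CPM (SD, n = 5) in sham saline and 272 ± 12.2 CPM (n = 4) in sham desipramine. Between SNI and sham mice on saline the log2 fold change was 0.06 ± 0.06 (95% interval -0.07 to 0.19). On desipramine it was -0.05 ± 0.07 (95% interval -0.20 to 0.09). No comparison called Cacna1b.

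The L-type pores were likewise not called. Cacna1d (chr14:30039939-30491455, minus strand) had group means between 132 ± 17.2 CPM (n = 6) in SNI tianeptine and 138 ± 19.4 CPM (n = 5) in SNI saline, and its log2 fold changes from sham to SNI rounded to 0.00 on both saline and desipramine. Their 95% intervals were -0.17 to 0.16 and -0.18 to 0.18. Cacna1c (chr6:118587240-119196418, minus strand) had group means between 174 ± 38.2 CPM (n = 4) in SNI desipramine and 206 ± 20.1 CPM (n = 5) in sham saline. Its SNI-to-sham values were -0.22 ± 0.12 on saline, -0.05 ± 0.11 on tianeptine and -0.18 ± 0.13 on desipramine. The mean of these was -0.15 ± 0.07 (adjusted p = 0.186).

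Of the T-type pores, Cacna1i (chr15:80287238-80398279, plus strand) had the smallest p of the 10 genes between SNI and sham mice on saline. Sham saline replicates 1 to 5 had 168 CPM, 165 CPM, 150.3 CPM, 140.5 CPM and 160.0 CPM. SNI saline replicates 1 to 5 had 115 CPM, 142 CPM, 96.2 CPM, 102 CPM and 162 CPM. The lowest 3 values were all from SNI mice, and the second-set SNI library was among the sham values. The fitted log2 fold change was -0.36 ± 0.14 (95% interval -0.64 to -0.08; unadjusted p = 0.0126; adjusted p = 0.436). On desipramine Cacna1i gave -0.35 ± 0.15 (adjusted p = 0.131) and on tianeptine -0.03 ± 0.12 (adjusted p = 1), and their mean over treatments was -0.25 ± 0.08 (adjusted p = 0.0777). With tissue scores as covariates the value on desipramine was 0.08 (adjusted p = 0.904).

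Cacna1g (chr11:94408391-94474198, minus strand) was the most variable of the 10 genes. Sham saline replicates 1 to 5 had 56.7 CPM, 51.9 CPM, 89.3 CPM, 50.7 CPM and 60.1 CPM. Sham desipramine replicates 1 to 4 had 135 CPM, 93.0 CPM, 163 CPM and 40.3 CPM. Of the desipramine values, 3 were above all saline values and 1 below them. On the log2 scale the difference was 0.84 ± 0.35 (95% interval 0.12 to 1.55; adjusted p = 0.589). In SNI desipramine replicates 1 to 4 Cacna1g was 97.9 CPM, 195 CPM, 144 CPM and 69.2 CPM, and tianeptine against desipramine in SNI mice gave -0.76 ± 0.34 (adjusted p = 0.193). Averaged over surgeries, desipramine against saline gave 0.71 ± 0.25 (adjusted p = 0.276).

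Over the remaining comparisons none of the 10 genes passed in edgeR, and none passed with DESeq2 or limma-voom, except 2 with DESeq2 in SNI against sham as a mean of treatments. There DESeq2 called 1601 of all genes tested, against 437 by edgeR. Nerve injury against sham on saline called 0 of 10 by edgeR, with 1 at an unadjusted p under 0.05. In that comparison 0% of all genes tested passed and 9.74% had an unadjusted p under 0.05, and DESeq2 called 1 gene and limma-voom 0. The 10 values ran from -0.36 to 0.49 with a median of -0.07, beside 0.00 over all genes. On tianeptine, SNI against sham called 0 of 10, with 0 at an unadjusted p under 0.05 (0% of all genes passed, 1.21% unadjusted, and 14 genes passed with DESeq2 and 0 with limma-voom). The values there ran from -0.11 to 0.22.

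Tianeptine against saline called 0 of 10 in sham mice by edgeR, with 1 at an unadjusted p under 0.05, and 0 of 10 in SNI mice, with 0 unadjusted. Over all genes tested 6.84% and 2.87% had an unadjusted p under 0.05. In both, 0% of all genes passed, DESeq2 called 1 gene and limma-voom 0. In SNI mice the 10 values lay between -0.18 and 0.16, and the widest 95% interval, that of Cacna1g, reached -0.82. Desipramine against saline called 0 of 10 in sham mice by edgeR, with 2 at an unadjusted p under 0.05, and 0 of 10 in SNI mice, also with 2. Over all genes tested the unadjusted shares were 7.63% and 17.5%. In both, 0% of all genes passed by edgeR, while DESeq2 called 22 genes in sham and 555 in SNI mice and limma-voom 0 in each.

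SNI against sham as a mean of treatments called 0 of 10 by edgeR, against 1.84% of all genes, and 4 had an unadjusted p under 0.05, against 22.6%. The mean effect of desipramine called 0 of 10 by edgeR against 0.0295% of all genes, with 2 unadjusted against 12.5%. That of tianeptine called 0 of 10 against 0%, with 1 unadjusted against 4.74%. The change of the tianeptine effect between SNI and sham called 0 of 10 by edgeR, with 0 unadjusted against 4.2% of all genes. That of the desipramine effect called 0 of 10, with 1 unadjusted against 12.3%, and 0% of all genes passed in either. DESeq2 called 0 and 100 genes in these 2 comparisons and limma-voom 0 in each.

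**Figure D4:**
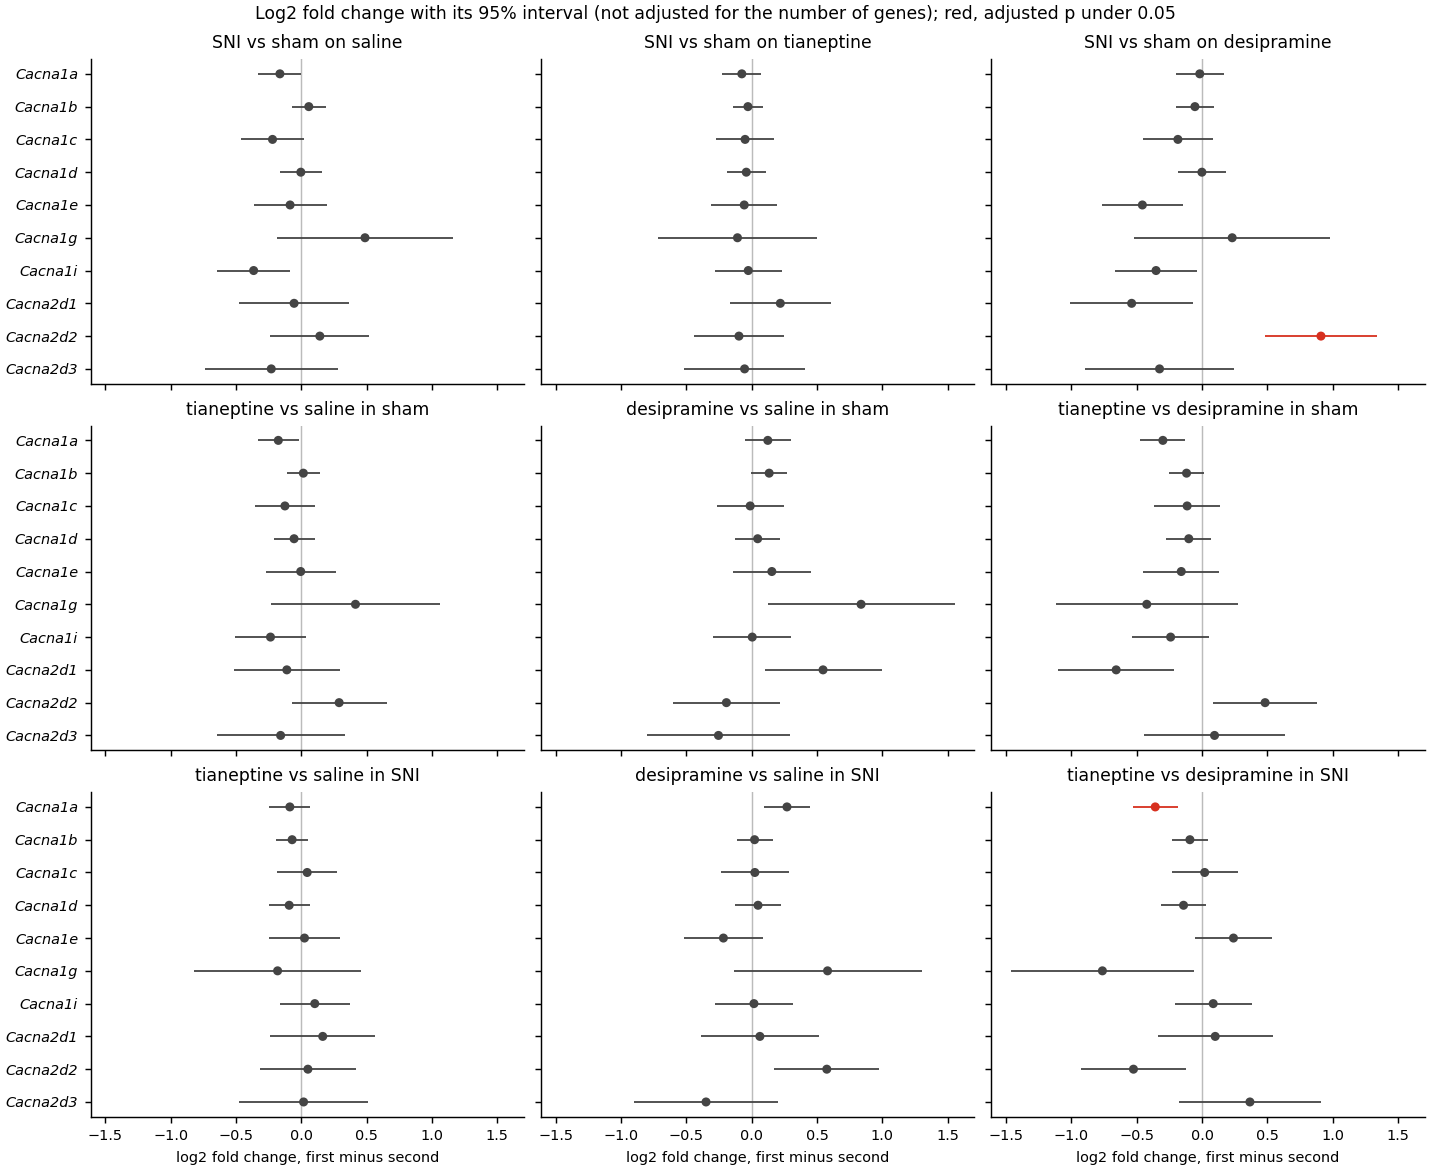
Points are log2 fold changes of the 10 genes in the 9 comparisons of pairs of groups, first-named minus second, and lines are 95% intervals not adjusted for the number of genes. Red marks an adjusted p under 0.05, reached by Cacna2d2 in SNI against sham on desipramine and by Cacna1a in tianeptine against desipramine in SNI. The intervals of Cacna1g are the widest and those of Cacna1b among the narrowest.

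Over the 30 libraries several of the channel genes followed the scores of marker lists. With 10 genes and 11 lists, 110 relations were computed on log2 CPM, and 40 had an adjusted permutation p under 0.05 for Pearson's r. These 40 had an r of 0.444 or more in either direction, as had 36.4% of the 110 and 22.3% of the relations of all 23736 genes tested to the same scores. No relation of Cacna1b (lowest adjusted p = 0.32) or Cacna1d (0.11) passed by Pearson's r, and 1 of Cacna1a did. By rho, Cacna1d passed with the oligodendrocyte score (rho = -0.480, adjusted permutation p = 0.03). Cacna1a passed by rho with the choroid plexus and ependyma (-0.459), cortical (0.458) and endothelial and mural (0.464) scores. The adjusted permutation p was 0.037 for each. Cacna1b did not pass by rho (lowest adjusted permutation p = 0.17). The points share the depth of each library, the punch and the group. The closest was Cacna2d3 with the medium spiny neuron score: r = 0.969 and rho = 0.956, each with a permutation p of 1e-05, the smallest that 100000 permutations can give (adjusted p = 0.0001 and 0.00037). Without the 2 libraries of most extreme score r was 0.952, within the first library set 0.972, and within groups 0.974. Cacna1g ran the other way, with r = -0.810 and rho = -0.868 (permutation p = 1e-05 for each; adjusted p = 0.0001 and 0.00037) and r = -0.870 without the same 2 libraries. It was -0.805 within the first set.

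Cacna2d2 rose with the thalamic and habenular neuron score (r = 0.834, rho = 0.718; permutation p = 1e-05 and 2e-05; adjusted p = 0.0001 and 0.00044). Without the 2 most extreme libraries r was 0.741, and within the first set 0.857. It ran against the cortical excitatory neuron score (r = -0.807, rho = -0.887; permutation p = 1e-05 for each; adjusted p = 0.0001 and 0.00037), with r = -0.795 without the 2 most extreme libraries and -0.766 within the first set. Cacna2d1 went with that cortical score instead (r = 0.715, rho = 0.678; permutation p = 1e-05 and 6e-05; adjusted p = 0.0001 and 0.00077), with r = 0.691 and 0.672 on the same 2 checks. Cacna1e and the medium spiny neuron score had r = 0.773 and rho = 0.475 (permutation p = 0.00018 and 0.0086; adjusted p = 0.0011 and 0.033), with r = 0.849 within the first set. Without the 2 most extreme libraries r was 0.332, so this relation rests on them. Cacna1e ran more closely against other lists. With the interneuron and cholinergic neuron score r was -0.837 and rho -0.615 (permutation p = 1e-05 and 0.00039; adjusted p = 0.0001 and 0.0029), with r = -0.588 without the 2 most extreme libraries and -0.817 within the first set. With the thalamic and habenular score r was -0.799 and rho -0.670 (permutation p = 1e-05 and 7e-05; adjusted p = 0.0001 and 0.00077), with -0.573 and -0.808 on the same checks. With the oligodendrocyte score r was -0.719 and rho -0.718 (permutation p = 1e-05 and 2e-05; adjusted p = 0.0001 and 0.00044), with -0.643 and -0.682.

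**Figure D5:**
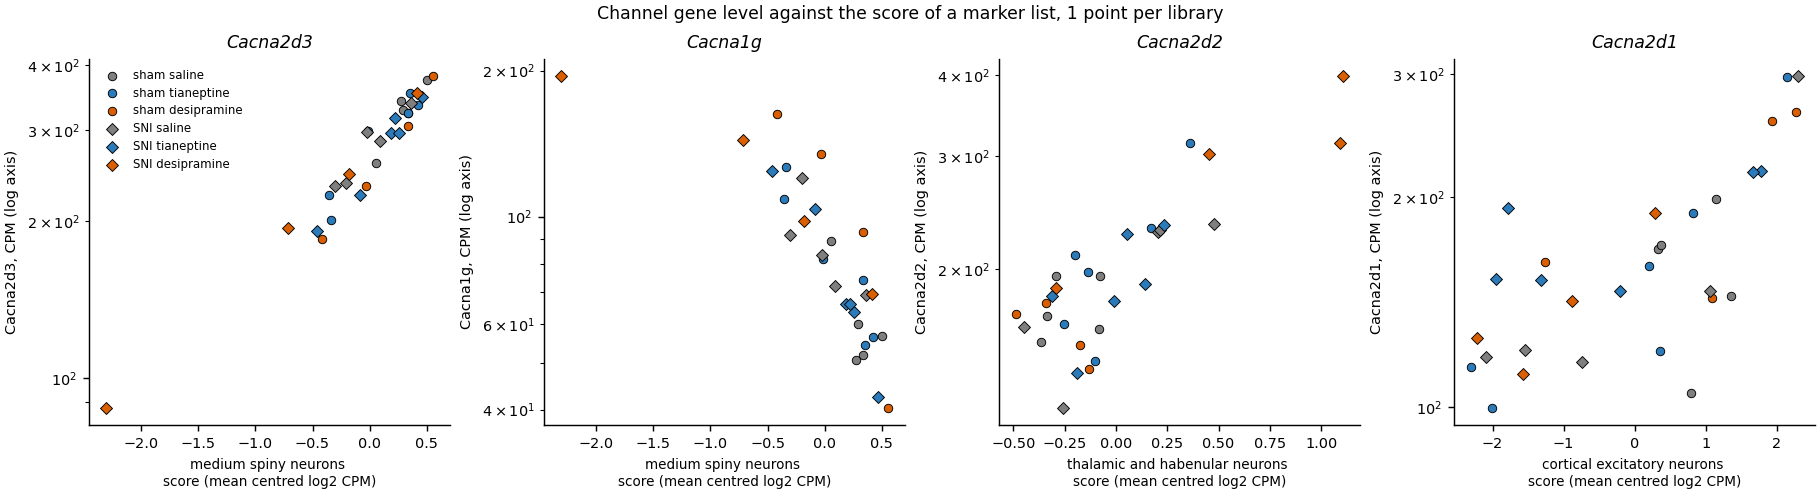
Each point is a library, with a marker list's score on the horizontal axis and the gene's CPM on a log vertical axis. Circles are sham and diamonds SNI, grey saline, blue tianeptine and orange desipramine. Cacna2d3 rises and Cacna1g falls along the medium spiny neuron score, Cacna2d2 rises with the thalamic score and Cacna2d1 with the cortical score. SNI desipramine replicate 2 lies at the far left of the first 2 panels, at a score of -2.31.

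The 10 genes also moved with and against each other. Of 45 pairs, 25 had an adjusted permutation p under 0.05 for Pearson's r. An r of 0.410 or more in either direction, the smallest among those 25, was held by 23.1% of the pairs of all genes tested. Cacna1g and Cacna2d3 opposed each other (r = -0.884, rho = -0.895; permutation p = 1e-05 for each; adjusted p = 0.00011 for each), with r = -0.907 without the 2 libraries of most extreme Cacna1g and -0.878 within the first set. Cacna2d1 and Cacna2d2, the gabapentin-binding pair, also opposed each other (r = -0.747, rho = -0.774; permutation p = 2e-05 and 1e-05; adjusted p = 0.00018 and 0.00011), with r = -0.695 and -0.707 on the same checks. Cacna1c and Cacna1i went together (r = 0.857, rho = 0.829; permutation p = 1e-05 for each; adjusted p = 0.00011 for each), with r = 0.809 and 0.838.

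The genes whose pattern was most like that of a channel gene were taken by Pearson's r of log2 CPM over the 30 libraries after the difference between library sets was removed. They are a description with no test, since they were picked as the highest. For Cacna2d3 they were Pde1b, a calmodulin-dependent phosphodiesterase (r = 0.975), Penk, the enkephalin precursor and itself one of the medium spiny neuron markers (0.971), and Pde7b (0.971). For Cacna2d2 they were Ephb2, an ephrin receptor (0.957), Lpin1 (0.949) and Rcan3 (0.945). For Cacna1a the likeness was weaker, with Dpp9 (0.871), Atp6v0a1, a subunit of the proton pump that acidifies synaptic vesicles (0.843), and Ift172 (0.841). For Cacna1g they were Syt13 (0.953), Stmn2 (0.949) and Slit1 (0.946), and for Cacna2d1 Fam135b (0.934), Stxbp5 (0.930) and Btbd10 (0.928).

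The other genes of the channel complex and its surroundings were followed in 6 lists. Of the 4 remaining pore and alpha-2-delta genes, none was called in any comparison. Cacna1h, the third T-type pore, had group means between 154 and 198 CPM and Cacna2d4 between 48.2 and 60.0 CPM, while Cacna1f and Cacna1s stayed near 1 CPM. Beta subunits bind the pore from inside the cell and bring it to the membrane. Of 4 beta genes, 1 was called lower in SNI than in sham mice on desipramine and 0 higher, Cacnb1 at -0.48 ± 0.13 (adjusted p = 0.0196). Its level was 151 ± 40.9 CPM (SD, n = 4) against 211 ± 11.9 CPM (n = 4). The median over the 4 beta genes was -0.37, beside 0.01 over all genes tested.

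Of 8 gamma subunit genes, some of which encode auxiliary proteins of AMPA receptors instead, 1 was called higher and 1 lower in that comparison. Cacng2, stargazin, was higher by 0.40 ± 0.10 (adjusted p = 0.0167) and Cacng8 fell by 0.48 (SE 0.11, adjusted p = 0.00877). Cacng2 was also lower on tianeptine than on desipramine in SNI mice, at -0.49 ± 0.10 (adjusted p = 0.0252), a comparison that shares the SNI desipramine mice. Of 28 regulators and partners, 3 were called higher and 3 lower between SNI and sham mice on desipramine. Stac, an adaptor that binds L-type channels, was higher by 1.66 ± 0.44 (adjusted p = 0.0178) and Rims3, of the presynaptic RIM family, by 0.99 ± 0.24 (adjusted p = 0.0118). Kcnip3, a calcium-binding protein also known as DREAM, gave -0.58 ± 0.17 (adjusted p = 0.027) and Unc13a, a vesicle-priming protein, -0.33 ± 0.10 (adjusted p = 0.0301). Stac was also the 1 regulator called in SNI against sham as a mean of treatments, at 0.92 ± 0.22 (adjusted p = 0.0392). Unc13a was lower on tianeptine than on desipramine in sham mice, at -0.47 ± 0.09 (adjusted p = 0.0395).

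Of 25 genes of calcium stores, clearance and calcium-activated channels, 1 was called higher and 5 lower between SNI and sham mice on desipramine. Itpr1, the IP3 receptor, gave -0.85 ± 0.27 (adjusted p = 0.0418), Slc8a2, a sodium-calcium exchanger, -0.85 ± 0.21 (adjusted p = 0.0133) and Orai2, a store-operated channel, -0.55 ± 0.13 (adjusted p = 0.0132). Slc8a3 was higher by 0.29 ± 0.09 (adjusted p = 0.0338). Of 18 calcium-dependent kinase and phosphatase genes, 3 were called lower and 0 higher, with Camk2a, the alpha subunit of CaM kinase II, at -0.77 ± 0.22 (adjusted p = 0.0285) and Camkk2 at -0.75 ± 0.23 (adjusted p = 0.0358). The shares called in these lists stand beside 7.22% of all genes called higher and 4.08% called lower. With tissue scores as covariates edgeR called 0 of all 23736 genes in this comparison, with 1686 (7.1%) at an unadjusted p under 0.05. Without SNI desipramine replicates 2 and 3 it called 0 of 24343, with 1867 (7.67%) unadjusted. None of the calls between SNI and sham mice on desipramine named here passed in either fit, as for Cacna2d2 above.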

How the data were processed

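RNA was extracted with TRIzol, and libraries of polyadenylated RNA were prepared with a stranded Illumina kit, per the labels' protocols. Per the submitters' processing notes, Trim Galore, HISAT2, SAMtools and featureCounts were used with mouse build mm10. No source used here gives their versions, the strand setting of the counting or the annotation release, so reads of genes that overlap on opposite strands may be shared. Opposite-strand genes overlap 3.81% of the exon length of Cacna1a, 4.67% of Cacna1d and 1.03% of Cacna2d2. The authors deposited whole-number counts per gene, with total counts of 24.5 to 120.7 M per library. A table of FPKM values was not used, and every sample column of the count table was used. Symbols, positions and exon lengths came from GENCODE M21. Of 55401 gene IDs, 54349 matched exactly, 792 without the version number and 260 not at all.

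Groups came from the sample labels, which give 1 animal per sample. Between libraries of a group, chi-square per degree of freedom was 6.89 or more, so none was a near copy. Genes were filtered with filterByExpr (23736 kept) and scaled by TMM in edgeR 4.0.16 (R 4.3.3). A robust quasi-likelihood model had a term for each group and a term for the library set, a division read from the numbering in the library names. In the first set these numbers run in blocks by group, so an effect of handling order and of group cannot be told apart. The 14 planned comparisons, 1 added one and a joint F test were 2-sided, adjusted by Benjamini-Hochberg over the 23736 genes and called at 0.05, and every adjusted p of a gene is from this test unless another tool is named. TPM was computed from the counts and merged exon lengths. Marker scores and correlations used log2 CPM, and permutation tests were 2-sided. The test was run on simulated counts drawn for each gene on its own. That check does not cover shifts of many genes together in 1 library. Values in every library were printed for the channel genes of smallest p in any comparison, up to 4 genes of smallest p per list and comparison were named, and so were the 3 most similar genes of a channel gene. DESeq2 1.42.0, limma-voom (limma 3.58.1), other filters, scalings, covariates and left-out libraries were tried as alternatives. The channel genes, gene lists and alternatives were chosen with earlier results of these data known.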

Additional observations from a re-analysis of the deposited data

Results flagged for a closer look

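In 3 of 60 sets of libraries, each 1 channel gene in 1 group, a single library lay far from the others of its group by Dixon's test, about what chance gives, since it picks out about 1 in 20 such sets. Cacna1a in SNI desipramine replicate 3 was 227 CPM, against 241.0 to 243.1 CPM in the other 3 mice, a narrow group in which the gap is small in absolute terms. Cacna1g in sham saline replicate 3 was 89.3 CPM, against 50.7 to 60.1 CPM in the other 4. Cacna2d1 in SNI saline replicate 5 was 298 CPM, against 116 to 147 CPM in the other 4. That library is the group's only one from the second library set, and its cortical excitatory neuron score was 2.30, the highest of the 30 libraries.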

How the results depend on the processing

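The number of the 10 genes called changed with the processing as follows, and the cause was not tested. In SNI against sham on desipramine it was 1 as reported, 2 with DESeq2 size factors, DESeq2, limma-voom, the replicate block or without sham saline replicates 2 and 3, 0 with tissue scores as covariates or without SNI desipramine replicates 2 and 3, and 0 to 4 leaving out 1 library (0 without SNI desipramine replicate 2, 2 without sham saline replicate 2, 4 without SNI desipramine replicate 4). In tianeptine against desipramine in SNI mice it was 1 as reported, 0 with no filter, no library set term, the first library set only, the replicate block, tissue scores or without SNI desipramine replicates 2 and 3, and 0 to 3 leaving out 1 library (3 without SNI desipramine replicate 4). In the joint test it was 1 as reported, 2 with DESeq2, 0 with limma-voom, no filter, no library set term, the first set only, the replicate block, tissue scores or without either pair of libraries, and 0 to 3 leaving out 1 library. In SNI against sham as a mean of treatments it was 0 as reported, 2 with DESeq2 and 0 to 4 leaving out 1 library (4 without SNI desipramine replicate 4, 2 without sham tianeptine replicate 1, 1 without SNI saline replicate 2 or SNI tianeptine replicate 4). Leaving out 1 library gave 0 to 2 for desipramine against saline in SNI mice and for the change of the desipramine effect, the 2 in both without SNI desipramine replicate 4. The number called among all genes tested changed as well. In the joint test it was 368 as reported, 2151 with DESeq2 and 6 with limma-voom. It was 55 with no filter, 325 with no library set term, 15 in the first set only and 8 with the replicate block. With tissue scores it was 17. Without SNI desipramine replicates 2 and 3 it was 6, and without sham saline replicates 2 and 3 it was 58. In tianeptine against desipramine in SNI mice it was 315 as reported, 1247 with DESeq2 and 101 with limma-voom. There it was 79 with no filter, 605 with no library set term, 27 in the first set only and 41 with the replicate block. With tissue scores it was 4, and without SNI desipramine replicates 2 and 3 it was 0. For SNI against sham as a mean of treatments it was 437 as reported, 1601 with DESeq2 and 0 with limma-voom. It is not given for the fits that left out 1 library, so their counts of the 10 genes have no background beside them. Of single genes, 2 values changed sign with tissue scores as covariates: Cacna1i in SNI against sham on desipramine, to 0.080 (adjusted p = 0.904), and Cacna1c in SNI against sham as a mean of treatments, to 0.012 (adjusted p = 1).

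Replicate numbers did not pair the libraries: deviations of same-numbered libraries from their group means had a median correlation of -0.01 over 67 pairs, and 1 library correlated best with its own number. With the replicate block in place of the library set, Cacna2d2 in SNI against sham on desipramine was 0.89 (adjusted p = 0.0142). Over all genes tested, DESeq2 called 3347 and limma-voom 2315 in that comparison, and tissue scores as covariates or leaving out SNI desipramine replicates 2 and 3 left 0, against 2682 as reported. The number was 2675 with DESeq2 size factors, 2378 with the replicate block and 3137 without sham saline replicates 2 and 3.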
